A study of Mus musculus with 3 samples.

Results

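The genes described here are 10 homeostatic chemokines and chemokine receptors that position cells within tissue: the ligands Cxcl12, Cxcl13, Cxcl14, Cxcl16, Ccl21a, Ccl27a and Cx3cl1, the receptors Cx3cr1 and Cxcr4, and the atypical receptor Ackr3. They were taken by name from the feature list, and are 10 of its 32285 genes. All 10 had UMIs (unique molecular identifiers, 1 per captured transcript) in every library.

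The data are 3 single-cell RNA libraries of back skin from wild type C57BL/6J mice labelled female, obtained at 8 weeks of age before irradiation began, with 1 library per condition. CON is the control library. UV skin received UVA (0.60 mW/cm2) together with 3.5 mW/cm2 of UVB every other day over 12 weeks. In the paper's design of 3 groups, control mice had vehicle without UV, and UV mice had UV with vehicle. The sample labels name no vehicle. Rux skin had the same irradiation, each time followed by a 1.5% ointment of ruxolitinib, an inhibitor of the kinases JAK1 and JAK2, and skin was taken 24 hours after the last exposure. How many mice went into a library was not given in the sources used here. With 1 library per condition no difference between conditions could be tested, and none has a replicate check. Intervals are exact 95% intervals that cover counting error only, and condition, animals and library cannot be told apart.

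Homeostatic chemokines are made continuously by resident cells, and each draws cells that carry its receptor to a particular place. Stromal Cxcl12 acts on Cxcr4 and is also bound and removed by Ackr3, which scavenges its ligands. Ccl21a guides dendritic cells and T cells into lymphatic vessels, and Ccl27a is a keratinocyte product that acts on Ccr10 of skin-homing T cells.

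The libraries held 11287 to 13170 barcodes and 131570327 to 165337289 UMIs, and 9386 to 10885 cells were retained in each. Pairs of libraries shared 28 to 50 barcodes. The label of female mice did not match the reads in any of the 3 libraries: Xist, which is expressed from the inactive X chromosome, was at 0.0914 to 0.120 CPM (counts scaled to a common total of UMIs), while the Y-linked gene Ddx3y was at 110.4 to 121 CPM. Cells fell into 45 clusters, made without the members or other listed chemokine genes. The 11 classes with at least 50 cells in every library were cells like fibroblasts (FB), pericytes and other mural cells (PCY), blood vessel endothelium (VEC), lymphatic endothelium (LEC), Schwann cells (SCH), basal keratinocytes (KB), inner root sheath and hair shaft (HS), myeloid cells (MYE), lymphocytes (LYM) and mast cells (MC), and keratinocytes with markers of several keratinocyte lists (KX). FB-like cells were 31.1%, 48.9% and 53.0% of the cells of CON, UV and Rux, with median depths of 6156, 7423 and 10106 UMIs, and 13.8%, 12.1% and 8.44% of cells stayed unnamed. The PCY-like class was cluster 19, led by Myh11, Lmod1 and H2-M9. Cluster 30, led by Rgs5, Fabp4 and Higd1b, scored high on both the VEC and the PCY list and stayed unnamed, so it is not in the PCY-like values. Below, 3 values in a row are CON, UV and Rux in that order.

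Among these 11 classes, for 6 of the 10 members, Cxcl13, Cxcl16, Ccl21a, Ccl27a, Cx3cr1 and Cxcr4, the class with the highest level was the same in all 3 libraries. With classes of at least 20 cells admitted the count was 4, since neutrophil-like (NEU) cells then led for Cxcr4 in CON and for Cx3cr1 in Rux. The leading class of Cxcl12, Cxcl14, Cx3cl1 and Ackr3 differed between libraries. Among the 11 classes, the interval of the leading class overlapped that of the next for Cx3cr1 in UV and Rux and for Cxcr4 in CON. It also did so for Cxcl12 in UV, for Cx3cl1 in CON and Rux, and for Ackr3 in UV and Rux.

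**Figure D1:**
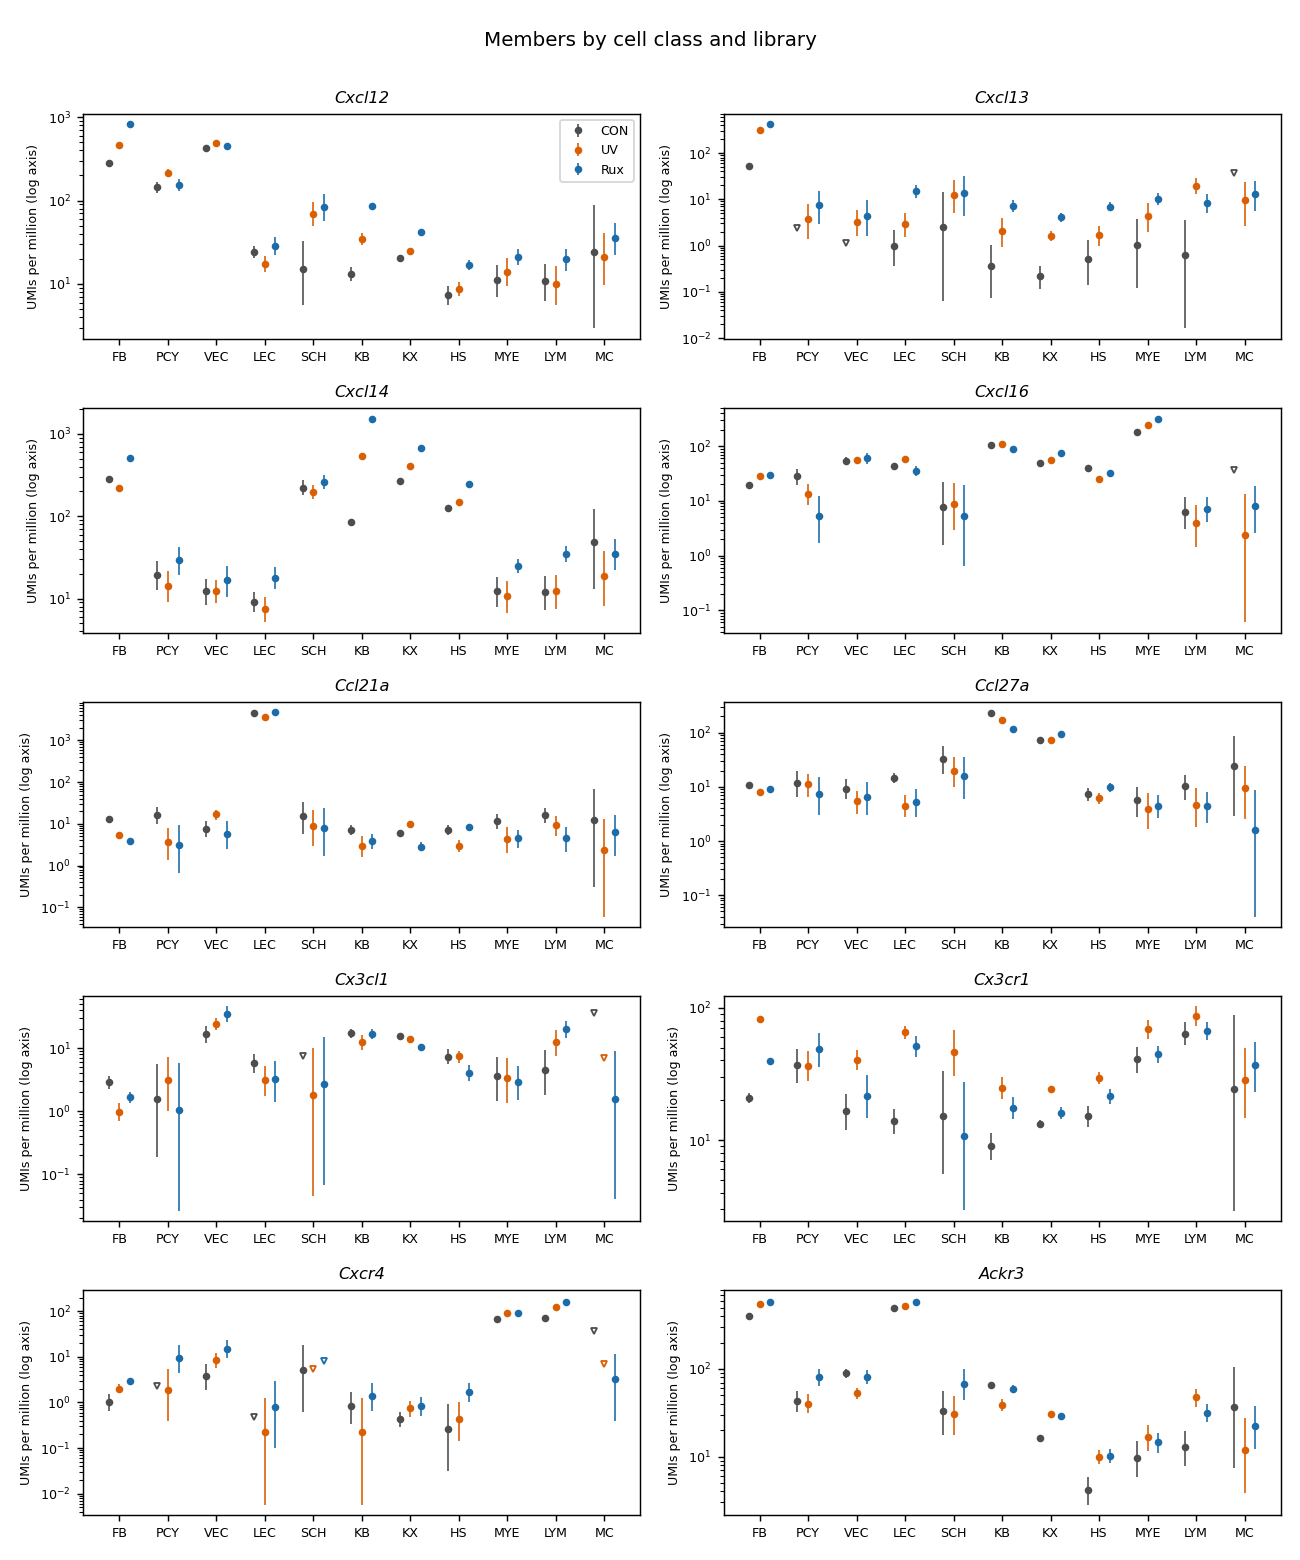
Each panel plots 1 member in CPM on a log axis for the 11 classes, with 1 point per library and exact Poisson 95% intervals. An open triangle marks a class without a UMI, drawn at the level of 3 UMIs. Ccl21a stands apart in LEC-like cells, Cxcl13 in FB-like cells, and Cx3cr1 is spread over all classes.

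The 3 ligands with the most UMIs in FB-like cells, Cxcl12, Cxcl13 and Cxcl14, are shown with the 250 bases before their RefSeq start site on GRCm38.p6, written 5′ to 3′ on the gene's strand. The windows are chr6:117168285-117168534 on the plus strand for Cxcl12, chr5:95956689-95956938 on the plus strand for Cxcl13 and chr13:56296552-56296801 on the minus strand for Cxcl14. Capitals mark a match to the STAT letters TTCNNNGAA or to the hypoxia-factor letters ACGTG, searched on both strands.
Cxcl12: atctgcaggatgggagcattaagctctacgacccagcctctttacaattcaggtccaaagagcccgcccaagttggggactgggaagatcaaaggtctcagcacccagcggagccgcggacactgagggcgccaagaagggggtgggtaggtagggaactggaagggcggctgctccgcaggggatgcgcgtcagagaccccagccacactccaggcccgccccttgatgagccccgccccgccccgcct
Cxcl13: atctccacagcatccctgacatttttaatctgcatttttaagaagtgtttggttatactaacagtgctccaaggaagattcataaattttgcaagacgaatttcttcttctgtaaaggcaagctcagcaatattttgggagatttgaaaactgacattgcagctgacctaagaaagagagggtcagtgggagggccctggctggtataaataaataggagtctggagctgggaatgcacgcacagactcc
Cxcl14: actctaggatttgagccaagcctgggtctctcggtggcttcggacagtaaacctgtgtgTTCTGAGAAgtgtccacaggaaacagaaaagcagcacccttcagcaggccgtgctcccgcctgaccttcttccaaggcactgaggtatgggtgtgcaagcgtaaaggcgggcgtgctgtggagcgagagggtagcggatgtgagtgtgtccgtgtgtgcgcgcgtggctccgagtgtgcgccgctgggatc
The Cxcl14 window held 1 match to TTCNNNGAA. Windows were found for 9 members, all but Cxcl16, and none of the other 8 held TTCNNNGAA, nor did any of the 9 hold ACGTG. Over 32851 windows of the same length, 7.02% held TTCNNNGAA and 16.6% held ACGTG. A match of letters is a description and not a site.

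Cxcl12 was a stromal and vascular gene. In FB-like cells it stood at 282 CPM in CON (interval 275 to 289), 466 in UV (459.6 to 473) and 823 in Rux (816 to 831). It was thus higher in UV than in CON and higher again in Rux, and the intervals did not overlap. VEC-like cells held 432, 495 and 449 CPM, so that they led in CON, lay beside FB-like cells in UV with overlapping intervals, and were below them in Rux. PCY-like cells held 143, 216 and 153 CPM. The log2 ratio in FB-like cells was 0.72 for UV over CON and 0.82 for Rux over UV. FB-like cells gave 58.0%, 75.8% and 89.7% of all Cxcl12 UMIs. A UMI was found in 59.0%, 69.5% and 84.4% of FB-like cells, against 6.32%, 5.44% and 11.3% of LYM-like cells, whose median depths were 5430, 5393 and 5614 UMIs. After each cell was thinned to 2000 UMIs, which left out 150, 231 and 123 FB-like cells as too shallow, the FB-like shares were 34.3%, 46.0% and 58.2%, in the same order.

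The FB-like class was made of 10 clusters, and their Cxcl12 levels ranged widely. Cluster 21, led by Saa3, Reg1 and Hp, had 505, 929 and 1567 CPM, and cluster 4, led by Myo16, Cthrc1 and Zim1, had 776, 795 and 1232 CPM. Cluster 5, led by Sntg1, Mrgprg and Gm12381, had 59.6, 93.9 and 91.2 CPM, and cluster 39, led by Coch, Fmod and Kera, had 16.2, 17.0 and 55.6 CPM. In cluster 39 of Rux 13 of the 31 UMIs were in 1 cell, and the level without it was 32.9 CPM. Cluster 21 had 11 cells in CON, with 14 of the 46 UMIs in 1 cell and 407 CPM without it. Of the 8 clusters with at least 50 cells in CON and UV, 7 had a UV over CON interval above 0 and none had one below. Of 10 clusters with at least 50 cells in UV and Rux, 8 had a Rux over UV interval above 0. Weighting the clusters as in CON, over the 9 with at least 20 cells in each library, left the UV over CON ratio at 0.73 and gave 0.25 for Rux over UV in place of 0.82. Cluster 21 is not among those 9. It was 0.325%, 2.06% and 7.17% of FB-like cells and gave 0.688%, 5.52% and 21.8% of their Cxcl12 UMIs. In the vasculature Cxcl12 was a gene of cluster 12, led by Adgrl4, Ccdc85a and Sox17, at 724, 621 and 652 CPM, and was lower in cluster 31, led by Cytl1, Sele and Selp, at 123, 100.2 and 85.1 CPM.

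**Figure D2:**
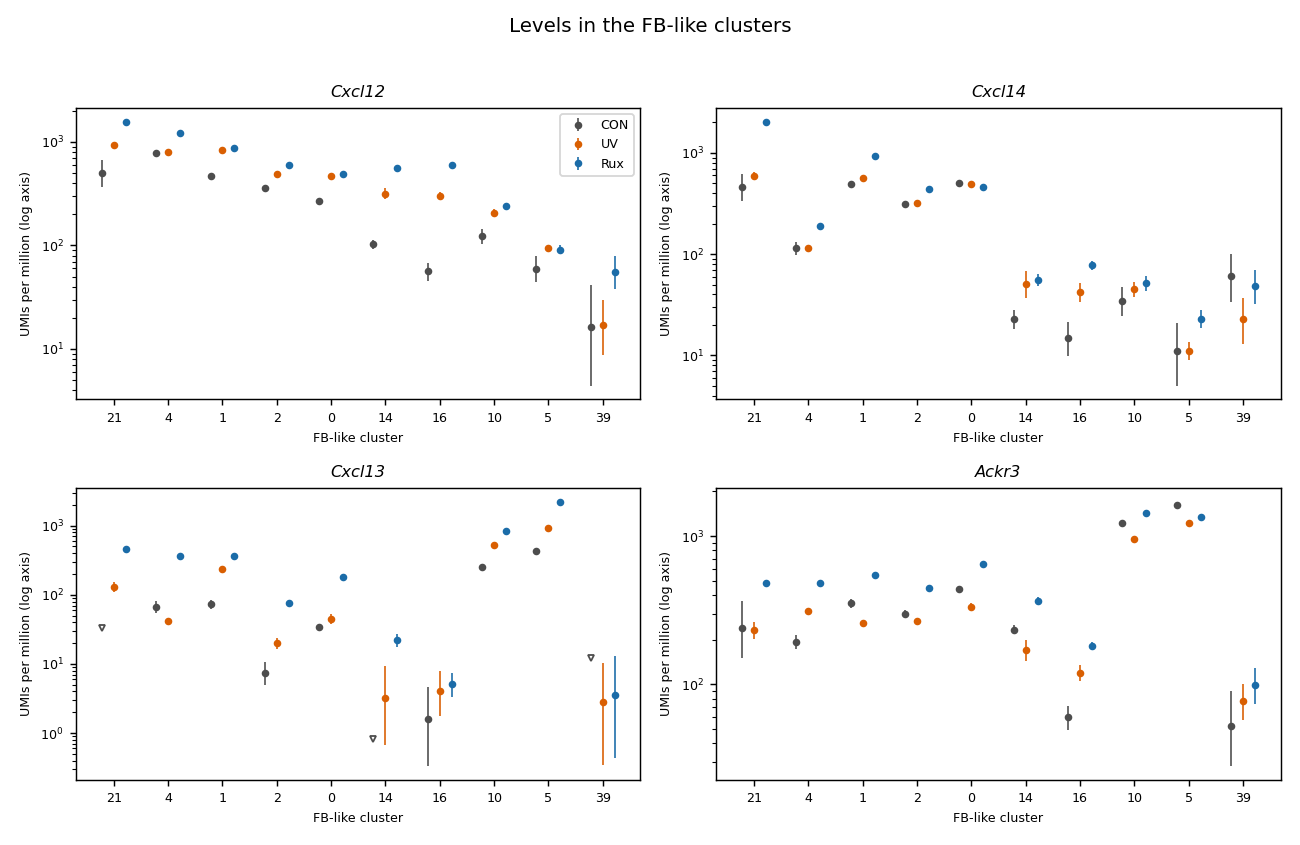
The 4 panels plot Cxcl12, Cxcl14, Cxcl13 and Ackr3 in CPM on a log axis for the 10 FB-like clusters, with 1 point per library and exact Poisson 95% intervals, and open triangles (at the level of 3 UMIs) for no UMI. Clusters 5 and 10 have the highest Ackr3 and Cxcl13 levels and are among those with low Cxcl12 and Cxcl14.

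Cxcl13, the ligand of Cxcr5 that gathers B cells into follicles, was an FB-like gene, with 91.3%, 96.1% and 96.3% of its UMIs in that class. Its level was 51.9 CPM in CON (interval 49.1 to 54.9), 322 in UV (317 to 328) and 425 in Rux (419.8 to 431), and the 3 intervals did not overlap. The log2 ratio was 2.63 for UV over CON and 0.40 for Rux over UV. A UMI was found in 6.18%, 26.5% and 29.4% of FB-like cells, and in 0%, 2.11% and 3.35% of VEC-like cells at median depths of 5364, 5812 and 6520 UMIs. Thinned to 2000 UMIs per cell, the FB-like shares were 3.84%, 18.7% and 17.9%, so the shares of UV and Rux did not keep the order of their CPM and no order is read from them. In the 404 VEC-like cells of CON there was no UMI, where 3 UMIs would be 1.16 CPM and the exact upper limit is 1.42 CPM.

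Cluster make-up and the levels of Cxcl13 within clusters both differed between libraries. From UV to Rux the share of cluster 5 fell while the summed level rose. Cluster 5 was 3.88%, 22.0% and 7.19% of FB-like cells, and gave 28.5%, 70.1% and 38.1% of their Cxcl13 UMIs. Within cluster 5 Cxcl13 stood at 427, 939 and 2190.1 CPM. In cluster 10, led by Sult1e1, Smpd3 and Stmn4, it stood at 249.9, 528 and 824 CPM. Both clusters were thus higher in UV than in CON and higher again in Rux. With clusters weighted as in CON the UV over CON ratio was 1.04 in place of 2.63 and the Rux over UV ratio 1.26 in place of 0.40. Among clusters past a minimum of 20 UMIs, 5 of 6 had a UV over CON interval above 0 and 8 of 9 had a Rux over UV interval above 0. In cluster 4 the level was 66.8 CPM in CON and 41.3 in UV, but 78 of the 110 CON UMIs were in 1 cell, and without that cell the CON level was 19.6 CPM.

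Cxcl14, a chemokine abundant in healthy epithelium and dermis, was found in both fibroblasts and keratinocytes. FB-like cells held 287, 223 and 514 CPM. KX-like cells held 269, 406 and 665 CPM, and 255, 420 and 717 CPM with their 6 clusters weighted as in CON. Of 6 KX-like clusters with at least 50 cells in CON and UV, 6 had a UV over CON interval above 0. Of 5 with at least 50 cells in UV and Rux, 5 had a Rux over UV interval above 0. KB-like cells held 86.2, 533 and 1537 CPM, so that FB-like cells led in CON and KB-like cells in the other two libraries. LYM-like cells held 12.1, 12.5 and 34.8 CPM, with a UMI in 7.51%, 7.95% and 19.8% of them.

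The KB-like values turned on 1 cluster. Cluster 40, led by Kcnb2, Fhod3 and Slc1a3, held 1736, 2922 and 3302 CPM, and it was 7, 61 and 143 cells, or 1.22%, 36.5% and 52.8% of KB-like cells. It gave 22.8%, 93.8% and 98.9% of their Cxcl14 UMIs. In CON 1 cell held 70 of the 164 UMIs of cluster 40. Cluster 17, led by Il20ra, Fcgbp and Sox6, was low by comparison. There Cxcl14 was at 67.2, 30.7 and 34.5 CPM, and the cluster was 84.9%, 14.4% and 26.9% of KB-like cells. Weighted as in CON over clusters 17 and 38, without cluster 40, KB-like levels were 67.3, 32.2 and 33.5 CPM. With doublets left in, the KB-like log2 ratio of UV over CON went from 2.63 to -0.69. In FB-like cells the UV over CON ratio of -0.36 became 0.03 with clusters weighted as in CON, and the Rux over UV ratio of 1.20 became 0.22. Those weights leave out cluster 21. Of 8 FB-like clusters with at least 50 cells in CON and UV, 3 had a UV over CON interval above 0 and 0 below. Of 10 with at least 50 cells in UV and Rux, 7 had a Rux over UV interval above 0 and 0 below. Cluster 21 had the highest FB-like Cxcl14 level in Rux, at 2033 CPM against 598 in UV.

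**Figure D3:**
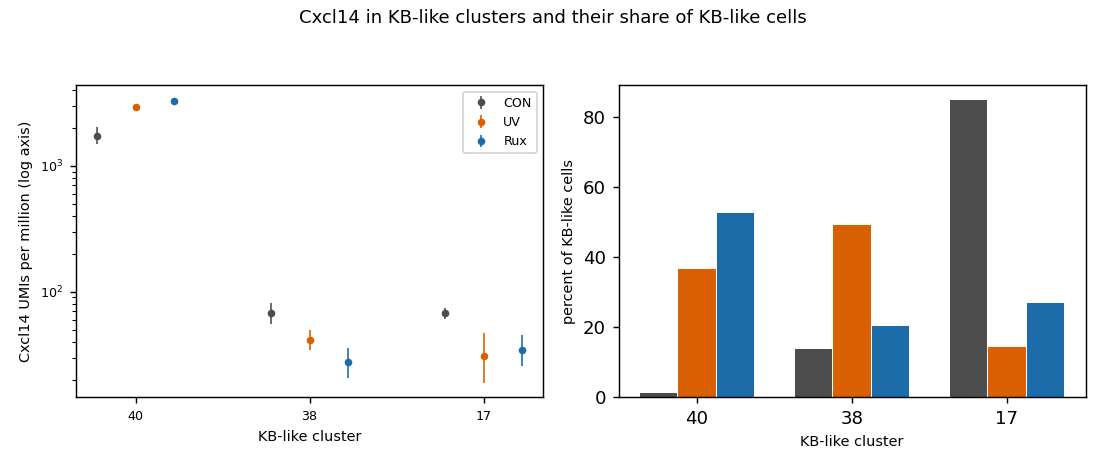
The left panel plots Cxcl14 in CPM on a log axis for the 3 KB-like clusters with exact Poisson 95% intervals, and the right panel the percent of KB-like cells in each, with 1 colour per library. Cluster 40 has the highest level in each library and goes from 1.22% of KB-like cells in CON to 52.8% in Rux.

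Cxcl16 is a membrane-bound ligand of Cxcr6. It was highest in MYE-like cells in all 3 libraries, at 185 CPM in CON (interval 167 to 205), 249 in UV (228 to 272) and 313 in Rux (296 to 331). The intervals of the 3 libraries did not overlap. KB-like cells came next with 104, 109 and 88.2 CPM. Among keratinocyte clusters the highest level was in KX-like cluster 8, led by Cst6, Defb6 and Klk7, with 171, 165 and 212 CPM. FB-like cells held 19.6, 29.2 and 29.7 CPM. On the opposite strand Zmynd15 overlaps 552 bases of Cxcl16, and its level across classes was the most like that of Cxcl16 (Pearson r 0.75 over 42 sums of a class in a library, which share libraries and depth).

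Ccl21a was a lymphatic gene, with 96.0%, 94.9% and 96.1% of its UMIs in LEC-like cells. There it stood at 4503 CPM in CON (interval 4450.0 to 4556), 3562 in UV (3507 to 3618) and 4721 in Rux (4636 to 4807), with UV the lowest. None of the other 10 classes passed 16.8 CPM in any library, and that highest value, in VEC-like cells of UV, had 35 of its 56 UMIs in 1 cell. A UMI was found in 74.9%, 72.5% and 69.7% of LEC-like cells and in 8.70%, 4.04% and 4.20% of FB-like cells, where the level was 13.0, 5.52 and 3.79 CPM. Other classes had like low levels, and whether the FB-like UMIs were background or expression was not tested. LEC-like cells, the main holders of Ccl21a, were 3.92%, 2.92% and 1.62% of all cells, and the part of their number in the low levels elsewhere was not tested. The feature rows named Ccl21b and Ccl21c held 0 UMIs, and Gm21541, whose transcript shares 297 of the last 300 bases with Ccl21a, held 35, 12 and 12, so that reads of such copies may not be told apart.

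Ccl27a was a keratinocyte gene. KB-like cells held 232 CPM in CON (interval 222 to 243), 170.3 in UV (158 to 183) and 118 in Rux (109 to 126), and the 3 intervals did not overlap. Weighted as in CON over 2 of the 3 KB-like clusters, the levels were 237, 253 and 148 CPM, so UV was then not below CON. Most of that weight lay on cluster 17, whose UV level turned on 1 cell, as given below. Those 2 clusters held 98.8%, 63.5% and 47.2% of KB-like cells. Of 2 KB-like clusters with at least 50 cells in UV and Rux, 1 had a Rux over UV interval above 0 and 1 below. KX-like cells held 72.0, 73.1 and 95.6 CPM, and 123, 116 and 103 CPM with their 6 clusters weighted as in CON, so that the order of the libraries turned with the weighting. In cluster 8 it was at 564, 494 and 426 CPM, the highest of the KB-like, KX-like, HS-like and suprabasal keratinocyte clusters. In cluster 17 it was at 244, 265 and 150.3 CPM. That cluster had 24 cells in UV, and 1 of them held 47 of the 173 UMIs. Without that cell the UV level was 220 CPM, below CON, so no order of CON and UV is read there. The genes most like it across classes were Trp63, Barx2 and Col17a1 (r 0.82, 0.82 and 0.81 over 42 sums), and Trp63 and Col17a1 are markers that named the KB-like class.

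Cx3cl1, the membrane-anchored ligand of Cx3cr1, was sparse. VEC-like cells had 44, 81 and 49 UMIs, or 17.0, 24.3 and 35.4 CPM. KB-like cells held 17.5, 12.5 and 16.8 CPM, with a UMI in 18.3%, 23.95% and 26.9% of cells. KX-like cells gave the largest part of its UMIs in all 3 libraries, 59.4%, 51.7% and 35.6% of the total. KX-like levels were 15.6, 14.1 and 10.4 CPM, with a UMI in 25.4%, 22.9% and 17.6% of cells. Their cluster 9, led by Adamts19, Hsd11b2 and Krt24, held 16.8, 33.7 and 18.2 CPM. In VEC-like cells 8.17%, 12.4% and 17.9% had a UMI, against 1.78%, 0.692% and 1.47% of FB-like cells, which were deeper. Among VEC-like cells, cluster 12 stood at 18.0, 29.2 and 46.1 CPM. LYM-like cluster 33, led by Gzmc, Xcl1 and Dscam, held 9.48, 30.4 and 61.7 CPM from 7, 18 and 42 UMIs.

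Cx3cr1, known as a receptor of macrophages, Langerhans cells and other leukocytes, was found in every class in these counts. LYM-like cells held 63.8, 86.9 and 67.0 CPM, and MYE-like cells 40.8, 68.6 and 44.7. FB-like cells held 20.7 CPM in CON (interval 18.9 to 22.6), 82.6 in UV (79.8 to 85.5) and 39.4 in Rux (37.8 to 41.1), and made up 23.0%, 55.9% and 59.8% of all its UMIs. LEC-like cells held 13.9, 65.1 and 51.3 CPM. The UV library was thus the highest in each of these classes. Of 11 classes past the minimum, 10 had a UV over CON interval above 0, and 9 of 11 had a Rux over UV interval below 0. Within FB-like clusters 6 of 8 had a UV over CON interval above 0, each at least 2-fold, and 8 of 9 had a Rux over UV interval below 0.

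These Cx3cr1 counts carry a limit of the annotation. On GRCm38 the gene model spans chr9:119901616-120069879, and this span overlaps Gorasp1, Csrnp1 and Xirp1 on the same strand and Wdr48 and Ttc21a on the other. Whether reads in introns were counted was not given in the sources used here. Ttc21a was the gene second most like Cx3cr1 across classes (r 0.76 over 42 sums), and in FB-like cells it held 2.74, 13.5 and 6.52 CPM. Like Cx3cr1 it was highest in UV. Csrnp1 in the same cells held 319, 236 and 291 CPM and was lowest in UV. The 9 myeloid markers were all detected in FB-like cells and summed to 52.3, 25.8 and 32.2 CPM. Among them Tyrobp was at 1.14, 1.63 and 2.67 CPM. C1qa, Lyz2, Csf1r and Fcer1g, of the same list, were lowest in UV, with Csf1r at 6.08, 2.90 and 4.61 CPM. The part of myeloid RNA and of overlapping genes in the Cx3cr1 values was not tested.

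Cxcr4, the signalling receptor of Cxcl12, was a leukocyte gene. LYM-like cells held 69.6 CPM in CON (interval 57.1 to 83.9), 123 in UV (106 to 142) and 159 in Rux (143 to 176). MYE-like cells held 67.9, 90.0 and 92.6 CPM. Their 2 clusters went opposite ways from UV to Rux. Cluster 20, led by Ighg2b, Igkc and Ighg3, held 57.6, 73.6 and 118 CPM. Cluster 22, led by Chil3, Lyz2 and F10, held 94.2, 120 and 79.9 CPM and was 69, 94 and 300 cells. With these clusters weighted as in CON, the MYE-like levels were 66.7, 85.2 and 108 CPM. NEU-like cells, outside the 11 classes with 50, 23 and 224 cells, had 27, 3 and 104 UMIs and stood at 211 CPM in CON (interval 139 to 306), 64.6 in UV (13.3 to 189) and 137 in Rux (112 to 166), with a UMI in 32%, 8.70% and 33.0% of them. Shares with a UMI were 22.5%, 39.7% and 50.7% of LYM-like cells at median depths of 5430, 5393 and 5614 UMIs, and 0.696%, 0.599% and 2.95% of KB-like cells at 11670, 20713 and 18540. The class with the deeper cells thus had the lower shares. Thinned to 2000 UMIs per cell, the LYM-like shares were 8.23%, 21.5% and 27.1%. Cluster 18, led by Icos, Ikzf3 and Cxcr6, held 114, 152 and 194 CPM, and cluster 33 held 20.3, 77.8 and 79.4. FB-like cells as a whole held 1.01, 1.98 and 2.96 CPM from 24, 78 and 166 UMIs. Among their clusters Cxcr4 was highest in cluster 39, at 36.4, 38.4 and 44.8 CPM from 9, 27 and 25 UMIs. Cluster 16, led by Adamts18, Lrrc15 and Col11a1, gave more of the FB-like UMIs, with 11, 42 and 110, at 5.88, 21.2 and 22.3 CPM.

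Ackr3 was shared by lymphatic endothelium and fibroblasts. LEC-like cells held 497, 528 and 581 CPM, and FB-like cells 405, 549 and 579. In UV and in Rux the intervals of both classes overlapped. Clusters 5 and 10 had the highest FB-like levels, at 1622, 1220.1 and 1351 CPM and at 1229, 960.1 and 1428 CPM. The summed FB-like ratio of UV over CON was 0.44, but 6 of 8 clusters had an interval below 0, and with clusters weighted as in CON the ratio was -0.34. Cluster 5, with its high Ackr3, gave 13.9%, 53.5% and 17.3% of FB-like Ackr3 UMIs. For Rux over UV 9 of 10 clusters had an interval above 0, and the weighted ratio was 0.79 in place of 0.08.

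**Figure D4:**
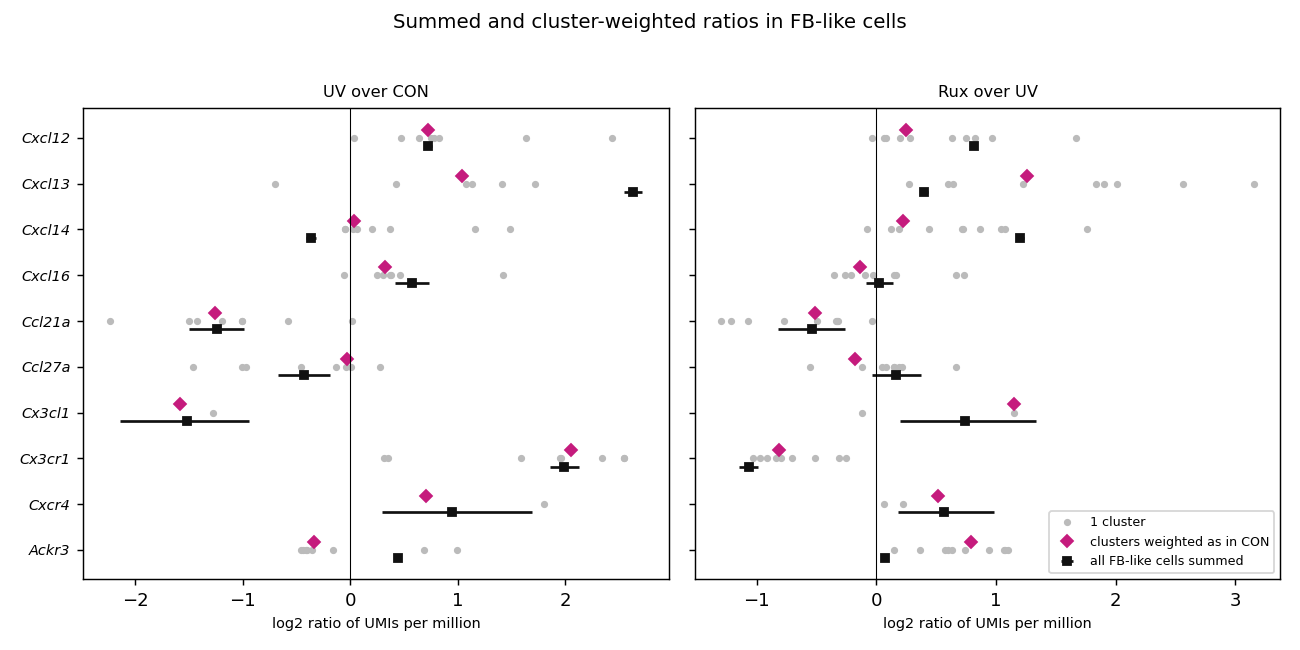
Log2 ratios of CPM in FB-like cells are plotted for each member, with UV over CON on the left and Rux over UV on the right: grey points are single clusters past the minimum of 20 UMIs, black squares the summed class with exact 95% intervals, and diamonds the clusters weighted as in CON. Ackr3 and Cxcl14 change sign for UV over CON between the summed and the weighted value.

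Over 9 FB-like clusters with at least 20 cells in each library, Cxcl13 and Ackr3 levels ranked together, with a Spearman rho of 0.81, 0.88 and 0.92. Cxcl12 and Ackr3 had a rho of 0.25, 0.03 and -0.08. The clusters of a library share its depth and preparation, so these are descriptions. In cells thinned to 2000 UMIs, Ackr3 was found in 71.0%, 71.2% and 61.3% of FB-like cells with a Cxcl13 UMI and in 39.9%, 41.9% and 49.9% of those without.

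Counted over members and classes, 92 of 130 pairs passed the minimum of 20 UMIs for UV over CON, in 13 classes with at least 50 cells in both libraries. Of these, 22 were at least 2-fold higher in UV with an interval that left out 0, and 8 were lower. In the class that led for the gene lay 2 of the 22 and 0 of the 8. These 2 were Cxcl13 in FB-like cells and Cxcl14 in KB-like cells, which led for Cxcl14 in UV but not in CON. A class that leads in the later library of a comparison is likelier to be higher there. No result is therefore read from the split by leading class. Outside it lay 20 higher and 8 lower pairs. Cx3cr1, whose counts carry the annotation limit given above, gave 6 of these higher pairs, the most of any member, and 0 of the lower. Cxcl13 gave 3 higher pairs and Ccl21a 1 higher and 5 lower, all at low levels from which no background was subtracted. Over all 139558 pairs of a gene and a class, 5.45% were higher and 3.79% lower. For Rux over UV 15 of 88 pairs were higher and 5 lower, against 2.12% and 4.05% of all pairs. In the class that led for the gene lay 1 of the 15 and 0 of the 5. Outside it Cxcl13 gave 5 higher pairs and 1 lower, and Cxcl14 gave 5 higher and 0 lower. These Cxcl13 pairs were at 15.0 CPM or less in Rux. Apart from FB-like cells, the Cxcl14 pairs lay in LYM-like, PCY-like, MYE-like and LEC-like cells. Their Cxcl14 levels in Rux were 34.8, 29.5, 24.9 and 17.8 CPM, with no background subtracted. For Rux over CON 26 of 94 were higher and 7 lower, against 5.69% and 6.79%, and 5 of the 26 and 0 of the 7 lay in the leading class. Of these 5, the pairs of Cxcl12, Cxcl14 and Cx3cl1 were in classes that led in Rux but not in CON. The median log2 ratio of the pairs of members was 0.22, 0.37 and 0.44 in the order given, and that of all pairs -0.02, -0.02 and -0.05. Within FB-like cells 2 of 10 members were higher and 2 lower for UV over CON, against 7.16% and 6.33% of genes. For Rux over UV 1 was higher and 1 lower, against 1.97% and 6.42%, and for Rux over CON 3 were higher and 1 lower, against 4.7% and 9.42%. The 3 comparisons share libraries. A low count can rest on 1 cell: Cxcl13 in LYM-like cells of UV had 30 UMIs, 22 of them in 1 cell.

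Among other listed genes of the same system, the receptors of the member ligands were sparse over all retained cells. Ccr7, the receptor of Ccl21a, was at 2.45, 5.71 and 9.94 CPM, Cxcr6 at 3.96, 4.76 and 8.04, Cxcr5 at 0.858, 1.03 and 1.23, and Ccr10 at 0.492, 0.222 and 0.197. Of the 4, 2 had a UV over CON interval above 0 and 1 below, and 2 had a Rux over UV interval above 0. Ccl19, which shares Ccr7 with Ccl21a, was at 44.6, 18.4 and 24.8 CPM. Among atypical receptors Ackr2 was at 4.42, 7.98 and 8.24 CPM and Ackr4, which binds Ccl21a, at 11.9, 6.93 and 8.36 CPM. Dpp4, a protease that trims Cxcl12, was at 32.6, 112 and 93.5 CPM, the highest level being in UV. These are levels over all retained cells, of which FB-like cells were 31.1%, 48.9% and 53.0%. Within FB-like cells none of the 3 listed proteases was at least 2-fold different in UV over CON, against 7.16% higher and 6.33% lower of all genes. Of 6 lymphotoxin and non-canonical NF-kB genes none was at least 2-fold different in UV over CON or in Rux over UV over all cells. In FB-like cells 4 of the 6 passed the minimum for UV over CON. Of these 4, none was 2-fold different, but 3 had an interval below 0 and 0 above (median log2 ratio -0.63, against -0.11 over all genes in FB-like cells). The counts over all cells, and the FB-like counts of intervals above or below 0, have no share of all genes beside them. No result is read from these counts.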

How the data were processed

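Skin cell suspensions were profiled by droplet single-cell RNA sequencing. The authors deposited raw UMI counts per gene and cell, aligned to mm10. The submitters' processing notes name Cell Ranger 6.1.2 and Seurat 5.3.0, while the matrix headers name Cell Ranger 7.0.0. Members, lists and tests were chosen with earlier results of these data known. Barcodes with 200 genes or more and no more than 10% mitochondrial UMIs were kept, and the highest Scrublet scores (scanpy 1.11.5) were removed as doublets, 836 to 1161 per library. Cells were clustered in Seurat 5.3.0 on 2000 variable genes without the 58 listed feature rows (13 had been among them), with 30 components and resolution 1.5. Clusters were named from marker lists. The margin of 1.25 in log2 marker score between the best and the next list, the mixed keratinocyte class and the exception that left a fat-cell cluster unnamed were set after the clusters were seen, and 5 clusters stayed unnamed. UMIs were summed per class and library, and log2 ratios of CPM had 0.5 UMI added. Intervals were exact: Poisson for levels, conditional binomial for ratios and Clopper-Pearson for shares. The code was tested on simulated data. Genes most like a member were ranked by Pearson r of log2(CPM + 1) among genes with at least 100 UMIs. Gene positions are GENCODE M21 and upstream windows RefSeq. Libraries held 131570327 to 165337289 UMIs, and the counting error they leave is given by the intervals. Named are the members, the listed genes, the genes most like a member and clusters' leading genes.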

Additional observations from a re-analysis of the deposited data

Results flagged for a closer look

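For 4 member and comparison pairs, classes differed in opposite directions, each by at least 2-fold, and the difference between the classes was not tested. For Rux over UV, Cxcl13 had a log2 ratio of 2.31 in LEC-like cells, where 27 of the 37 Rux UMIs were in 1 cell, and of -1.21 in LYM-like cells, where 22 of the 30 UV UMIs were in 1 cell. For UV over CON, the Ccl21a ratio was 1.10 among VEC-like cells but -2.06 among PCY-like ones, and for Rux over UV it was 1.45 among HS-like and -1.75 among KX-like cells, all at low levels beside LEC-like cells. Of these Ccl21a UMIs, 35 of the 56 of VEC-like cells in UV, 59 of the 92 of HS-like cells in Rux and 144 of the 341 of KX-like cells in UV were in 1 cell. For UV over CON, Cx3cl1 had 1.42 in LYM-like and -1.52 in FB-like cells, both from low counts. LYM-like cells had 7 UMIs in CON and 19 in UV. FB-like cells had 68 in CON and 39 in UV, or 2.87 and 0.992 CPM.

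Cells of the 5 unnamed clusters entered no comparison of a class between libraries. They held 3 members in the UV library above their level in the CON library: Cxcl12 at 249.9 CPM, Cxcl13 at 25.3 CPM and Cx3cr1 at 42.3 CPM. The largest of these clusters, cluster 3 with 1727 cells, scored highest on the fibroblast list. There Cxcl13 was at 42.8 CPM in CON, with 27 of 75 UMIs in 1 cell. In UV it was at 124.9 CPM, with 60 of 192 UMIs in 1 cell.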

How the results depend on the processing

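Counts of member and class pairs at least 2-fold different were 30, 20 and 33 for UV over CON, Rux over UV and Rux over CON. With a minimum of 100 UMIs they were 12, 8 and 16. Over the other alternatives they ranged over 25 to 44, 14 to 30 and 26 to 48, and members with 1 leading class over 4 to 7 (6 as reported). Chosen after seeing the data were a smaller naming margin, which reversed no ratio, leaving out the cell with the most UMIs of the gene in each class and library, and the CON weights outside FB-like cells. Among the pairs at least 2-fold different and all FB-like ratios, those that changed sign are given as log2 values. With the looser filter, UV over CON was 1.22 for Ccl21a in KB-like and -0.34 for Cxcl14 in muscle progenitor-like cells. With doublets left in, UV over CON was -0.81 for Cxcl12 and -0.69 for Cxcl14 in KB-like cells and -0.29 for Cxcl14 in muscle progenitor-like cells, Rux over CON was -0.18 for Cxcl14 in KB-like cells, and Rux over UV was -0.19, 0.54 and -0.062 for Cxcl13 in KB-like, LYM-like and MYE-like cells, -0.25 for Cxcl14 in PCY-like, -0.81 for Ackr3 in SCH-like and 0.23 for Ccl21a in FB-like cells. With equal weight per cell, UV over CON was 0.13 for Ccl21a in KB-like cells and Rux over UV was -0.032 for Cxcl16 in FB-like cells. Without the cell with the most UMIs, UV over CON was -0.36 for Cxcl14 in muscle progenitor-like and -0.14 for Ccl21a in VEC-like cells, and Rux over UV was 0.55 for Cxcl13 in LYM-like cells. With clusters weighted as in CON, KB-like ratios were -0.14 for Cxcl12 and -1.06 for Cxcl14 (UV over CON) and -1.002 for Cxcl14 (Rux over CON), and FB-like ratios were 0.035 for Cxcl14 and -0.34 for Ackr3 (UV over CON) and -0.13 for Cxcl16 and -0.18 for Ccl27a (Rux over UV). The cause was not tested. No paired analysis was possible because each condition has 1 library and no test was made.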
